A study of Mus musculus with 18 samples.

Results

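The 9 genes described here are the simple epithelial keratin genes Krt8, Krt18 and Krt19 and the trophoblast transcription factor genes Cdx2, Eomes, Gata3, Tfap2c, Hand1 and Ascl2. They were taken by name from a table of 54446 genes in 18 libraries of nuclear RNA, 9 groups of 2, from embryonic stem cells of C57BL/6 mice. The trophoblast is the outer lineage of the blastocyst, which builds the fetal part of the placenta, and embryonic stem cells come from the inner cell mass beside it and do not normally enter that lineage. Keratin 8, a type II keratin, pairs with the type I keratins 18 and 19 to form the filaments of simple epithelia, the trophectoderm among them. Cdx2 and Eomes maintain trophoblast stem cells, Gata3 and Tfap2c act in the trophectoderm, Hand1 drives giant cell formation, and Ascl2, an imprinted gene, keeps the spongiotrophoblast.

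The series examined nuclear RNA decay and nuclear RNA levels in cells that lack parts of the N6-methyladenosine (m6A) machinery, a methyl mark on adenosines of RNA. YTHDC1 is the nuclear protein that reads the mark, and METTL3 is the enzyme that writes it. Cells labelled cKO (conditional knockout) for Ythdc1, and a Ythdc1 control, were collected after 0, 3 and 6 h of 5 µg/ml actinomycin D, which stops transcription. Lines labelled KO1 and KO2 for Mettl3, and a Mettl3 control, were collected at 0 h, so without a chase. All groups carried the same strain label and medium, with serum, LIF, CHIR99021 and PD0325901, and were cultured for 48 h before the drug. How the conditional allele was switched off, and whether KO1 and KO2 are each 1 clone, is not given in the sources used here.

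Gene reads per library ranged from 4950973 to 30989044, the lowest in replicate 1 labelled cKO at 6 h. The labels do not say whether the 2 libraries of a group came from separate cultures, so the spread behind each p-value is that among libraries and may be technical. Levels are given as CPM, read counts scaled to a common library size with TMM factors, so a fold change is set against the bulk of the genes. The ERCC spike-in RNAs set another scale. Relative to gene reads they stood at 277 and 272 CPM in the libraries labelled cKO at 3 h, against 358 to 1889 CPM in the others, so the cKO 3 h libraries stand apart on that scale. At 0 h Ythdc1 RNA was not called lower by TMM in libraries labelled cKO. It had 132 ± 16.1 CPM in cKO and 139 ± 9.31 in control (SD, n = 2 each, log2 -0.07, edgeR adjusted p = 0.557). Counts by gene cannot show whether part of the gene was lost. Ythdc1 RNA was lower by TMM in cKO at 3 h (14.9 against 51.1 CPM) and at 6 h (18.9 against 49.3 CPM). Scaled to spike-ins, the median of all genes for cKO over control was -0.36, 2.00 and -0.44 at 0, 3 and 6 h. The values of Ythdc1 on that scale are not given here, so its TMM values hold only relative to the typical gene. In the same way Mettl3 RNA was not called lower in those labelled KO1 (31.9 ± 0.957 CPM, against 34.3 ± 3.32 in control). It was lower in KO2 by TMM, at 22.4 ± 0.434 CPM. Spike-in scaling moved the median of all genes in KO2 to 0.53, and the value of Mettl3 on that scale is not given here. Group names are therefore those of the labels throughout.

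Pluripotency genes were high in all groups, as the cell label says. The 10 pluripotency markers summed to between 3000 and 4730 CPM, while 10 primitive endoderm markers summed to 11.2 to 20.6 CPM and 10 primitive streak markers to 2.37 to 14.1 CPM. Among 20 genes of differentiated trophoblast, Prl3d1, a giant cell hormone, and Synb, a syncytin of the labyrinth, had 0 reads in all 9 groups, and Tpbpa, a spongiotrophoblast marker, had 0 reads in 7 of them. The 20 genes together summed to 137 to 386 CPM, of which Peg10 alone held 336 CPM in libraries labelled cKO at 0 h and 118 in control. In bulk libraries such as these, fewer cells that express a gene and less RNA per cell cannot be told apart.

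Krt8 was the highest of the 9 genes per length of its exons in 9 libraries, Tfap2c in 6 and Krt18 in 3. The levels in the sentences that follow are CPM per kb of merged exons. In the libraries labelled KO1 the order was Krt8 (16.0 ± 0.774; SD, n = 2), Krt18 (9.43 ± 0.290), Tfap2c (7.05 ± 0.460), Eomes (4.87 ± 0.0960) and Krt19 (1.39 ± 0.174), followed by Cdx2 (0.730), Gata3 (0.710) and Ascl2 (0.696), whose libraries overlapped, and Hand1 (0.106). KO2 held Gata3 in the fourth place (2.62 ± 0.0704) and Cdx2 (1.63 ± 0.0740) and Eomes (1.61 ± 0.121) after it with overlapping libraries, and Krt19 stood eighth at 0.602 ± 0.0371. In the Mettl3 control, Krt8 (28.1 ± 2.80), Krt18 (17.9 ± 1.48), Tfap2c (8.73 ± 0.465) and Krt19 (5.64 ± 0.543) led, Gata3 (2.03) and Eomes (1.94) overlapped, and Ascl2 (1.01), Cdx2 (0.344) and Hand1 (0.234) closed the order. Among Ythdc1 libraries at 0 h, those labelled cKO were led by Krt18 (5.46 ± 1.79), Tfap2c (3.41 ± 0.0578) and Krt8 (2.64 ± 0.0536), with Krt19 (2.21 ± 0.884) overlapping both Krt8 and Eomes (1.52 ± 0.213). In the Ythdc1 control at 0 h, Tfap2c led at 6.90 ± 0.194, ahead of Krt18 (2.97 ± 0.463), Krt8 (2.02 ± 0.592) and Eomes (1.35 ± 0.0339). The 2 control lines were not tested against each other, because the Ythdc1 and Mettl3 libraries were fitted apart.

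Krt8 (ENSMUSG00000049382.10) and Krt18 (ENSMUSG00000023043.7) are neighbours on mouse chromosome 15 in GENCODE M21 on mm10. Krt8 spans 101996698 to 102004482 on the minus strand with 9 merged exons, and Krt18 spans 102028180 to 102032027 on the plus strand with 7. Their starts face each other across 23698 bp. Krt19 (ENSMUSG00000020911.14) lies on chromosome 11, 100140810 to 100148665, minus strand. The promoters of the keratin pair are shown because the genes share a locus and were called in the same direction in the Mettl3 lines by TMM. RefSeq held a promoter of 250 bases before and 50 after the start for 6 of the 9 genes (build GRCm38.p6). Capitals mark matches to 4 motifs searched on both strands, the TATA box TATAAA, the CCAAT box, the GC box GGGCGG and the GATA motif AGATAA.
Krt8, chr15:102004293-102004592, minus strand: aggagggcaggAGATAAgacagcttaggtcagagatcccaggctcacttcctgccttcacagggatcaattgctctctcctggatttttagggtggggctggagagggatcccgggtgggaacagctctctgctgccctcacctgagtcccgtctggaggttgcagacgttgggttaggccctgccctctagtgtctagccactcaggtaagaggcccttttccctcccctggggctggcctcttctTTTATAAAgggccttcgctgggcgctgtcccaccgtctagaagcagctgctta
Krt18, chr15:102027966-102028265, plus strand: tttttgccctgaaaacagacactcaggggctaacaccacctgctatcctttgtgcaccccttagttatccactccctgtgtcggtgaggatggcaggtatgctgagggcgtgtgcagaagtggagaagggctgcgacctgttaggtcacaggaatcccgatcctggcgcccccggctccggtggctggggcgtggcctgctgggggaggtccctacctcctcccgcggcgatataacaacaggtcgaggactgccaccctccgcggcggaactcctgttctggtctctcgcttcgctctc
The Krt8 window held AGATAA and an overlapping pair of TATAAA matches, 1 on each strand. The pair begins at -1 and -3 from the RefSeq start, so both matches span that start. The Krt18 window held none of the 4 motifs. For comparison, 13.6% of 32851 mouse promoters of this length held TATAAA, 37.4% CCAAT, 35.7% GGGCGG and 11.2% AGATAA. A match is a description of the letters, and a window without one says nothing of any factor. The RefSeq start of Krt8 lies inside the longer GENCODE gene.

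Before the drug, Krt19 was called higher and Tfap2c and Cdx2 lower in the libraries labelled cKO on both scales, and Krt18 was called higher by TMM only. Krt19 had 2.93 and 5.25 CPM in libraries labelled cKO, against 1.73 and 1.22 CPM in control. Both cKO libraries were above both controls, and the log2 fold change was 1.49 ± 0.35 (SE; edgeR adjusted p = 0.000948). Krt18 had 9.66 and 6.03 CPM in libraries labelled cKO and 3.79 and 4.73 CPM in control, again without overlap (0.86 ± 0.26, adjusted p = 0.0105). Krt8 had 5.10 and 5.25 CPM in libraries labelled cKO and 4.77 and 3.13 CPM in control, without overlap, and did not pass the test (0.43 ± 0.25, adjusted p = 0.200). Tfap2c, which is also active in naive pluripotent cells and in germ cell precursors, had 12.7 and 12.4 CPM in libraries labelled cKO, against 25.9 and 24.9 CPM in control. It had 228 reads in all in cKO and 565 in control, with no overlap (-1.01 ± 0.15, adjusted p = 1.54e-06). Cdx2 had 4 and 2 reads in libraries labelled cKO, against 11 and 25 in control (-2.23 ± 0.74, adjusted p = 0.0204). Eomes, Gata3, Hand1 and Ascl2 were not called, with log2 fold changes of 0.17, 0.16, 1.19 and 0.44. Counts were low for Gata3 (2 to 20 reads in a Ythdc1 library) and Hand1 (0 to 17), and Ascl2 stayed between 0.782 and 1.96 CPM over all 18 libraries. All 9 genes passed the filter on low counts. Cdx2 passed it only through the 2 control libraries at 0 h, where it was highest. Its lower value against that group is therefore favoured by the filter and is no independent support. In all, 2 of 9 genes rose and 2 fell, where 29.4% of 17900 genes tested were called in either direction, 13.5% higher and 15.8% lower. The libraries of 7 of the 9 genes did not overlap between the groups, against 62.7% of all genes. The median log2 fold change was 0.43 over the 9 genes and 0.014 over all genes.

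Of these calls, only that of Tfap2c held without each of the 12 libraries in turn. Krt19 was at 1.01 without replicate 2 labelled cKO (adjusted p = 0.0860). Krt18 was at 0.48 without replicate 1 labelled cKO (adjusted p = 0.309) and at 0.72 without replicate 1 of the control (adjusted p = 0.0941). Cdx2 lost its call without either library labelled cKO (-2.77 and -1.85) and without replicate 2 of the control (-1.83). Scaled to spike-ins, the median of all genes moved to -0.36 and Krt18 lost its call (0.49, adjusted p = 0.123), while Krt19 (1.13), Cdx2 (-2.60) and Tfap2c (-1.38) kept theirs, where 4.41% of all genes were called higher and 42.3% lower.

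After 3 h of the drug Eomes and Krt8 were called higher and Tfap2c and Cdx2 lower in the libraries labelled cKO than in control, and spike-in scaling turned Tfap2c and left Cdx2 at -1.19 with no call. Eomes had 7.94 and 8.10 CPM in libraries labelled cKO and 3.75 and 4.20 CPM in control. The cKO level was 2.01-fold higher, with no overlap (log2 1.01 ± 0.21, adjusted p = 0.000152). Tfap2c stayed lower, at 14.5 and 17.4 CPM in libraries labelled cKO against 28.2 and 28.3 CPM in control (-0.82 ± 0.13, adjusted p = 2.23e-06). Krt8 had 10.9 and 11.5 CPM in libraries labelled cKO, against 6.91 and 8.0 CPM in control (0.58 ± 0.17, adjusted p = 0.00603). Cdx2 had 0 and 2 reads in libraries labelled cKO and 4 and 12 in control, called lower (adjusted p = 0.0133) with a count ratio of 0.107 and a 95% interval of 0.0119 to 0.454 that covers counting error only. The 0 reads allow up to 0.209 CPM. Krt18 (-0.10 ± 0.22) and Krt19 (0.17 ± 0.23) had overlapping libraries. Thus 2 genes were higher and 2 lower, where 43.0% of all genes were called, 22.3% higher and 20.7% lower. Groups did not overlap for 4 of 9 genes, against 73.6% of all genes. The Krt8 call was lost without replicate 1 of the control (0.48, adjusted p = 0.0837) and without replicate 2 labelled cKO (0.55, adjusted p = 0.0688), and the Cdx2 call without replicate 2 of the control (-2.15) and without replicate 1 labelled cKO (-2.30); without replicate 2 labelled cKO, where no reads are left, the fitted value is no bound. These values hold only relative to the typical gene: scaled to spike-ins the median of all genes was 2.00, 8 of the 9 genes were called higher and 0 lower, close to the 93.3% and 0.0335% of all genes, and Tfap2c turned to 1.17 and Krt18 to 1.89.

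At 6 h Eomes was called higher and Tfap2c lower, where 42.4% of all genes were called, 19.7% higher and 22.7% lower. Groups did not overlap for 6 of 9 genes, against 66.8% of all genes. Tfap2c had 9.78 and 6.10 CPM in libraries labelled cKO, against 21.9 and 19.3 CPM in control. That was 2.87-fold lower (log2 -1.52 ± 0.17, adjusted p = 2.16e-09), and -1.94 when scaled to spike-ins, which put the median of all genes at -0.44. Eomes had 3.47 and 4.77 CPM in libraries labelled cKO and 2.60 and 2.79 CPM in control (0.70 ± 0.28, adjusted p = 0.0400), a call close to the threshold. It ended without any 1 of 5 libraries, replicate 1 (0.66) or 2 (0.76) of the control at 6 h, replicate 1 or 2 labelled cKO at 3 h (0.69 in both cases) or replicate 2 labelled cKO at 6 h (0.35), and without both cKO 3 h libraries (0.69). Spike-in scaling also ended it (0.27) and left 1 of the 9 genes called, Tfap2c, where 6.59% of all genes were called higher and 46.5% lower. Krt18 was just outside the threshold, with 7.95 and 11.3 CPM in libraries labelled cKO and 8.13 and 5.85 CPM in control (0.56 ± 0.23, adjusted p = 0.0506). It was called with DESeq2 size factors (0.57, adjusted p = 0.0466), with no filter on low counts (0.66, adjusted p = 0.0105) and without any 1 of 5 libraries: replicate 1 of the control at 6 h (0.81) or at 3 h (0.57), replicate 1 labelled cKO at 6 h (0.72), or replicate 1 or 2 labelled cKO at 0 h (0.57 in both cases). Scaled to spike-ins it was at 0.13 and not called. Cdx2 had 1 and 1 reads in libraries labelled cKO and 5 and 3 in control, a count ratio of 0.224 (95% interval 0.0232 to 1.12). Hand1 had 0 and 17 reads in libraries labelled cKO and 7 and 3 in control, too few to place it; the 0 reads allow up to 0.612 CPM.

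**Figure D1:**
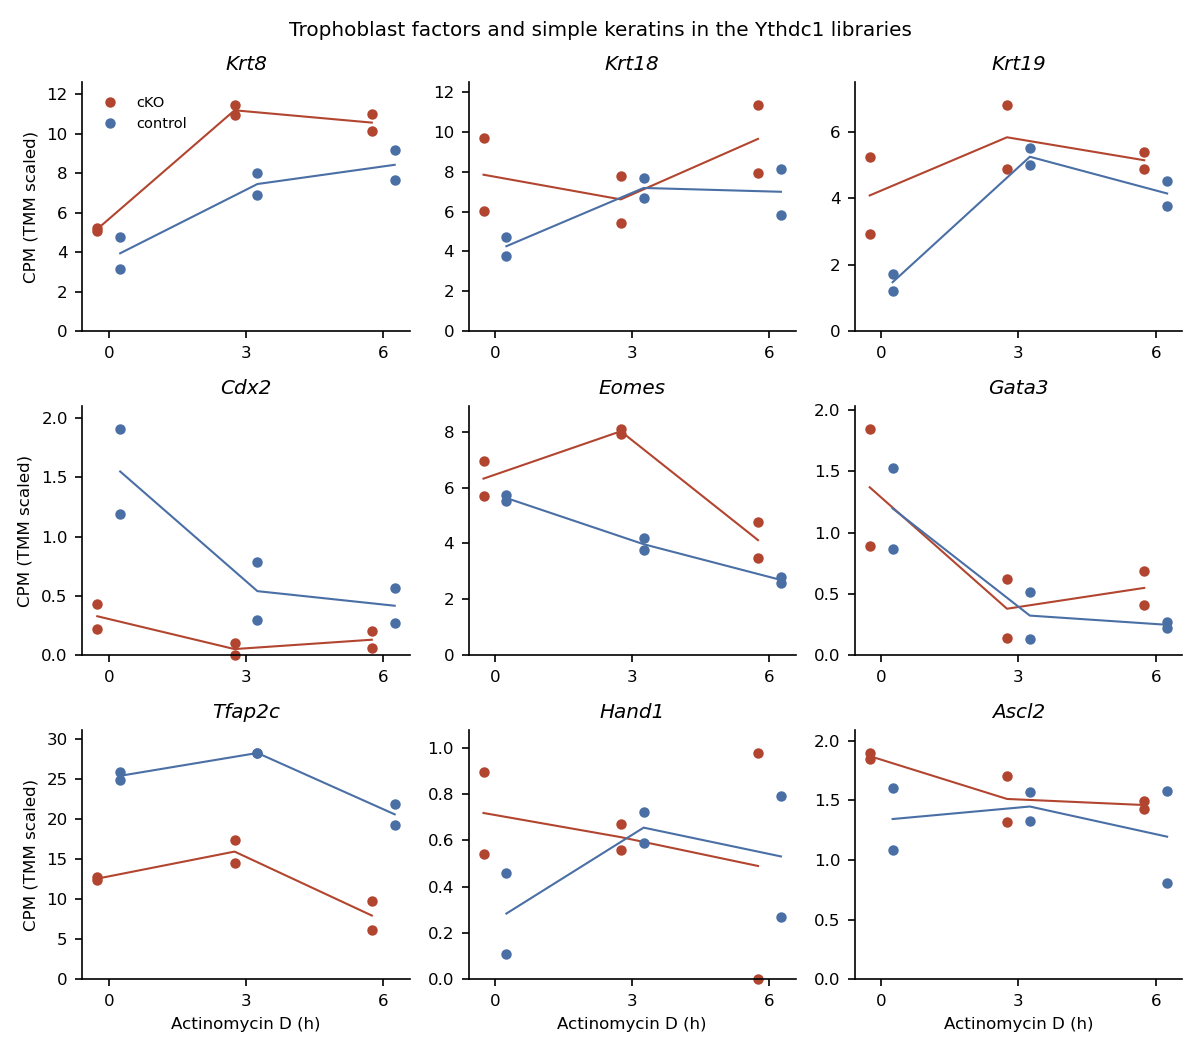
Level of each gene in CPM (y axis, from 0) in the 12 Ythdc1 libraries against hours of actinomycin D, with a point per library, lines through the group means, libraries labelled cKO in red on the left of each time and control in blue on the right. Tfap2c is lower in the libraries labelled cKO at all 3 times on this TMM scale (at 3 h spike-in scaling turned it to 1.17), Eomes separates the genotypes at 3 h, and Krt8 is higher at 3 and 6 h than at 0 h in both genotypes. Scaled to spike-ins, Krt8 was at 0.43 and 0.22 at 3 and 6 h in control, with no call. In cKO it was at 2.95 with a call at 3 h and at 0.035 with no call at 6 h.

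The chase asks which nuclear RNAs are kept or lost once transcription stops, and in control cells the keratins and the factors moved apart. Krt8 averaged 3.95 ± 1.16, 7.46 ± 0.768 and 8.43 ± 1.06 CPM at 0, 3 and 6 h (SD, n = 2 each). Krt18 averaged 4.26 ± 0.665, 7.18 ± 0.692 and 6.99 ± 1.62 CPM, and Krt19 1.48 ± 0.362, 5.25 ± 0.358 and 4.15 ± 0.523 CPM at the same times. Each of the 3 keratins had all later libraries above both 0 h libraries on this TMM scale. At 6 h against 0 h the log2 fold changes were 1.14 ± 0.22 for Krt8 (adjusted p = 2.8e-05), 0.68 ± 0.26 for Krt18 (adjusted p = 0.0237) and 1.51 ± 0.34 for Krt19 (adjusted p = 0.000210). At 3 h they were 0.96 ± 0.22, 0.73 ± 0.25 and 1.86 ± 0.31, all called. These are rises relative to other RNA. Scaled to spike-ins, the 3 h call of Krt19 held (1.34, adjusted p = 0.000589) and those of Krt8 (0.43, adjusted p = 0.0907) and Krt18 (0.21, adjusted p = 0.499) ended, where 7.19% of all genes were called higher and 51.1% lower. The median of all genes on that scale was -0.46 at 3 h and -0.88 at 6 h, and at 6 h Krt8 was at 0.22, Krt19 at 0.59 and Krt18 at -0.24, none of them called. Fibroblast markers moved beside the keratins. The 10 genes summed to 10.2 to 12.1, 27.9 to 32.9 and 40.2 to 43.5 CPM at 0, 3 and 6 h in control. In libraries labelled cKO the sums were 13.7 to 14.6, 18.9 to 19.2 and 24.1 to 27.2 CPM. Of 6 tested at 6 h against 0 h in control, 4 rose and 0 fell (median 1.72), and 2 and 0 scaled to spike-ins (median 0.81). Of 10 differentiated trophoblast genes tested there, 4 rose and 0 fell (median 1.06), and 3 and 1 scaled to spike-ins (median 0.145). By TMM 33.1% of all genes rose and 31.7% fell, and scaled to spike-ins 7.33% and 63.0%. The part of fibroblasts or trophoblast cells in the keratin values was not tested.

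The factors fell or were not called. Eomes averaged 5.63 ± 0.141, 3.97 ± 0.315 and 2.69 ± 0.135 CPM at 0, 3 and 6 h in control, and its 6 h value was -1.06 ± 0.26 against 0 h (adjusted p = 0.000621). Gata3 had 2 and 3 reads at 6 h and 8 and 20 at 0 h (-2.25 ± 0.79, adjusted p = 0.0129). Cdx2 had 5 and 3 reads at 6 h and 11 and 25 at 0 h (-1.94 ± 0.70, adjusted p = 0.0149). Cdx2 passed the filter on low counts only through the control libraries at 0 h, and Gata3 only through 0 h libraries of both genotypes. Their falls against 0 h are therefore favoured by the filter. This applies to the fall of Gata3 in libraries labelled cKO too. Tfap2c was at 20.6 ± 1.88 CPM at 6 h and 25.4 ± 0.714 at 0 h, just outside the threshold (-0.31 ± 0.14, adjusted p = 0.0511). Scaled to spike-ins, Eomes (-1.98), Gata3 (-3.15), Cdx2 (-2.85), Tfap2c (-1.22) and Ascl2 (-1.15) were all called lower at 6 h, and 0 of the 9 genes higher, where 63.0% of all genes were called lower and 7.33% higher. Counted by TMM, 3 genes rose and 3 fell at 6 h, where 64.8% of all genes were called, 33.1% higher and 31.7% lower; groups did not overlap for 7 of 9 genes, against 80.6% of all genes. At 3 h 3 rose and 2 fell, Cdx2 (-1.51) and Gata3 (-1.94), where 56.5% were called, 29.3% higher and 27.1% lower, and groups did not overlap for 8 of 9 genes, against 78.4% of all genes. Tfap2c (0.16, not called) turned to -0.37 when scaled to spike-ins. Krt18 lost its calls without replicate 1 of the control at 0 h (0.60 at 3 h, 0.53 at 6 h), at 3 h without replicate 2 of the control at 3 h (0.63) and at 6 h without replicate 1 of the control at 6 h (0.44). Gata3 lost them without replicate 2 of the control at 0 h (-1.43 and -1.76) and at 3 h also without replicate 2 at 3 h (-1.24), and without replicate 1 at 3 h it was at -3.13. Cdx2 at 6 h lost its call without replicate 2 at 0 h (-1.55) or at 6 h (-1.47). Its 3 h call ended without any 1 of 7 libraries, namely control replicate 1 (-1.78) or 2 (-1.10) of the 0 h group, control replicate 1 of the 3 h group (-0.99), or any of the 4 labelled cKO from 0 or 3 h (-1.49 to -1.51). It was at -2.38 without replicate 2 of the control at 3 h.

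In libraries labelled cKO, 3 genes were called over the chase at 3 h and 2 at 6 h. Krt8 averaged 5.18 ± 0.105, 11.2 ± 0.370 and 10.6 ± 0.624 CPM at 0, 3 and 6 h, with log2 fold changes of 1.11 ± 0.20 at 3 h (adjusted p = 1.02e-05) and 1.01 ± 0.21 at 6 h (adjusted p = 0.000101) against 0 h. Scaled to spike-ins these were 2.95 and 0.035, with the median of all genes at 1.86 and -0.96. On that scale 7 of the 9 genes were called higher and 0 lower at 3 h, and 0 higher and 5 lower at 6 h, where 83.8% of all genes were called higher and 2.69% lower at 3 h, and 3.28% and 68.4% at 6 h. Tfap2c averaged 12.5 ± 0.213, 15.9 ± 2.05 and 7.94 ± 2.61 CPM, called higher at 3 h (0.35 ± 0.15, adjusted p = 0.0446) and lower at 6 h (-0.82 ± 0.18, adjusted p = 0.000228). The 3 h call ended without replicate 1 (0.39) or 2 (0.34) at 0 h or replicate 2 at 3 h (0.22), and the 6 h call without replicate 2 at 6 h (-0.36, adjusted p = 0.230), all labelled cKO. Gata3 was lower at 3 h, with 2 and 12 reads at 3 h and 17 and 8 at 0 h (-1.73 ± 0.66, adjusted p = 0.0221), a call lost without replicate 1 at 0 h (-1.11) or at 3 h (-1.12), at -3.19 without replicate 2 at 3 h, and turned to 0.082 by spike-in scaling. Krt18 was not called at 3 h (-0.23 ± 0.23) or 6 h (0.38 ± 0.23), and spike-in scaling turned these to 1.61 and -0.60. In all, 2 genes rose and 1 fell at 3 h, where 59.4% of all genes were called, 29.6% higher and 29.8% lower. At 6 h 1 rose and 1 fell, where 60.9% were called, 29.6% higher and 31.3% lower. Groups did not overlap for 6 of 9 genes at either time, against 80.4% of all genes at 3 h and 78.3% at 6 h.

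The test of the difference between the genotypes is the interaction, the change over the chase in libraries labelled cKO minus that in control. At 3 h it was below 0 for Krt18 (-0.97 ± 0.34, adjusted p = 0.0402) and Krt19 (-1.33 ± 0.42, adjusted p = 0.0210) and called for none of the other 7 genes, where 19.4% of all genes were called, 8.39% below 0 and 11.0% above. Krt19 gained 1.86 in control and 0.53 in libraries labelled cKO, which had started higher. Krt8, their type II partner, gained 1.11 in libraries labelled cKO and 0.96 in control, a difference of 0.16 ± 0.30. Eomes was just outside the threshold at 0.84 ± 0.31 (adjusted p = 0.0540). Both calls depended on single libraries. Krt18 lost its call without replicate 1 (-0.83) or 2 (-1.15) of the control at 0 h, replicate 2 of the control at 3 h (-0.86), replicate 1 labelled cKO at 0 h (-0.58) or replicate 1 labelled cKO at 3 h (-0.74). Krt19 lost its call without replicate 2 of the control at 0 h (-1.06) or 3 h (-1.25), replicate 2 labelled cKO at 0 h (-0.85) or replicate 1 labelled cKO at 3 h (-1.12). Scaled to spike-ins, where the cKO 3 h libraries stand apart and the median of all genes was 2.36, Krt18 turned to 1.40 and Krt19 to 1.02, and 7 of the 9 genes were called above 0, against 89.4% of all genes above and 0% below. At 6 h the edgeR test called 0 of the 9 genes, with 2 at an unadjusted p under 0.05 (Krt19 and Tfap2c) 0 called by spike-in scaling and 0 of the 5 to which DESeq2's Wald test gave an adjusted p, where 19.1% of all genes were called, 9.77% above 0 and 9.35% below (7.52% and 10.3% scaled to spike-ins). Krt19 was at -1.15 ± 0.45 (adjusted p = 0.0692) and Tfap2c at -0.51 ± 0.23 (adjusted p = 0.124). Without replicate 1 labelled cKO at 0 h Krt19 was called at -1.50, and without replicate 1 labelled cKO at 6 h Tfap2c was called at -0.72.

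The Mettl3 lines were compared with their control for nuclear RNA levels in cells labelled as lacking the methyltransferase. By TMM all 3 keratins were lower in both lines, while on the spike-in scale Krt18 was higher in KO2. Krt19 had 2.80 and 2.34 CPM in libraries labelled KO1, 1.07 and 1.17 CPM in KO2 and 11.2 and 9.75 CPM in control. It was 4.02-fold lower in KO1 (log2 -2.01 ± 0.19, adjusted p = 2.84e-15) and 9.33-fold lower in KO2 (-3.22 ± 0.22, adjusted p = 6.89e-22). Krt8 had 30.3 and 32.5 CPM in libraries labelled KO1, 38.0 and 35.1 CPM in KO2 and 58.9 and 51.2 CPM in control, so that the lines did not overlap the control (-0.81 ± 0.070 and -0.59 ± 0.069). Krt18 had 13.3 and 13.8 CPM in libraries labelled KO1, 19.8 and 21.4 CPM in KO2 and 24.2 and 27.2 CPM in control. Its log2 fold change was -0.92 ± 0.096 in KO1 (adjusted p = 1.34e-13) and -0.32 ± 0.093 in KO2 (adjusted p = 0.00268). The KO2 values of Krt8 and Krt18 did not hold on the spike-in scale, which moved the median of all genes to 0.17 in KO1 and 0.53 in KO2: Krt8 was at -0.025 and Krt18 turned to 0.24 (adjusted p = 0.0198). In KO1 they were at -0.63 and -0.74 on that scale, and Krt19 at -1.82 in KO1 and -2.66 in KO2, all still called, where 34.8% of all genes were called higher and 13.7% lower in KO1, and 56.7% and 6.69% in KO2. The Krt18 call in KO2 was also lost without replicate 2 of the control (-0.23, adjusted p = 0.0882) or replicate 1 of KO2 (-0.26, adjusted p = 0.0708).

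**Figure D2:**
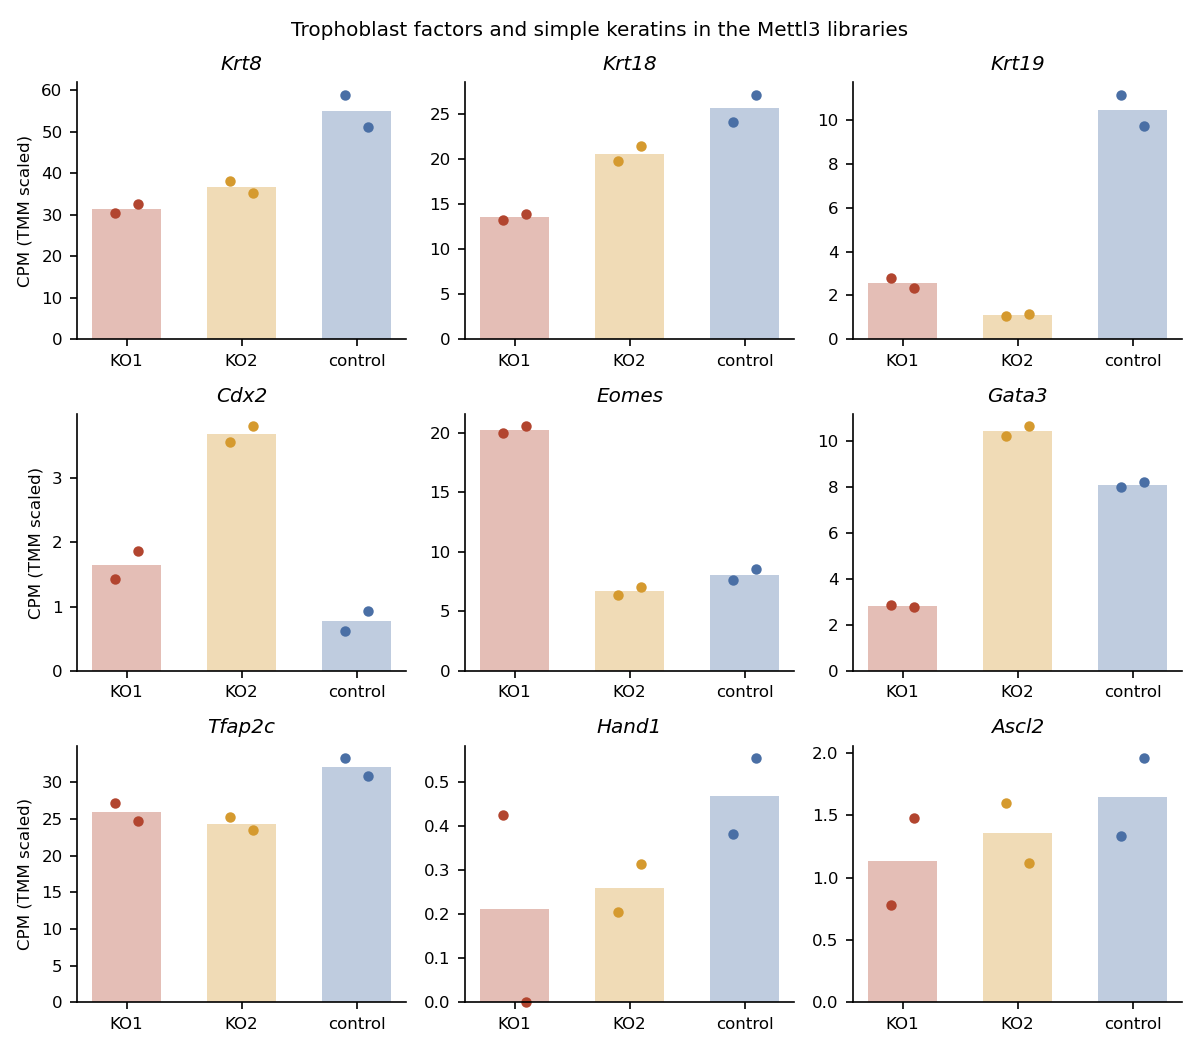
Level of each gene in CPM (y axis, from 0) in the 6 Mettl3 libraries, with a point per library and bars at the group means, for the lines labelled KO1 and KO2 and the control from left to right. The 3 keratins are lower in both lines than in the control on this TMM scale (in KO2 spike-in scaling turned Krt18 to 0.24), while Eomes is highest in KO1, at 20.0 and 20.5 CPM, and Cdx2 is highest in KO2.

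Among the factors, Eomes was higher in KO1 and Gata3 lower, while Cdx2 was higher in both lines. Eomes had 20.0 and 20.5 CPM in libraries labelled KO1, 6.32 and 7.04 CPM in KO2 and 7.59 and 8.55 CPM in control. It rose 2.50-fold in KO1 (1.32 ± 0.12, adjusted p = 2.85e-16) and was at -0.28 ± 0.14 in KO2, not called (adjusted p = 0.0877, and 0.29 scaled to spike-ins). Gata3, a zinc finger factor that binds GATA sequences, had 2.87 and 2.78 CPM in libraries labelled KO1, 10.2 and 10.6 CPM in KO2 and 7.97 and 8.21 CPM in control. It was 2.86-fold lower in KO1 (-1.52 ± 0.17, adjusted p = 2.79e-12) and 1.29-fold higher in KO2 (0.36 ± 0.15, adjusted p = 0.0300). Cdx2, the caudal-type homeobox factor, had 44 and 43 reads in libraries labelled KO1, 87 and 85 in KO2 and 13 and 22 in control, and was higher in both lines (1.05 ± 0.35, adjusted p = 0.00921; 2.22 ± 0.32, adjusted p = 6.25e-09). Tfap2c was lower by little in both, at 25.9 ± 1.69 CPM in KO1, 24.4 ± 1.19 in KO2 and 32.1 ± 1.71 in control (-0.30 ± 0.081 and -0.40 ± 0.082), values that spike-in scaling changed to -0.12 and 0.17 without a call. Ascl2 was not called in either line (-0.59 ± 0.36 and -0.28 ± 0.36). Hand1 did not pass the filter on low counts and was not tested; it had 13 and 0 reads in libraries labelled KO1, where 0 reads allow up to 0.130 CPM, 5 and 7 in KO2 and 8 and 13 in control.

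Of the 8 genes tested, 2 rose and 5 fell in KO1, where 46.1% of 21802 genes were called, 23.9% higher and 22.2% lower. In KO2 2 rose and 4 fell, where 50.8% were called, 24.4% higher and 26.4% lower. Libraries did not overlap for 7 of the 8 genes in each comparison, against 70.4% of all genes in KO1 and 73.9% in KO2. Their median log2 fold change was -0.70 in KO1 and -0.30 in KO2, against -0.015 and -0.030 over all genes. Both comparisons use the same 2 control libraries. The call of Cdx2 in KO1 was lost without replicate 1 of the control (0.80, adjusted p = 0.111) or replicate 2 of KO1 (0.87, adjusted p = 0.0789). That of Gata3 in KO2 was lost without any 1 of the 4 libraries compared (0.34 to 0.39), while on the spike-in scale it was at 0.93 (adjusted p = 2.43e-08). In KO1 Ascl2 was called without replicate 2 of KO1 (-1.07).

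**Figure D3:**
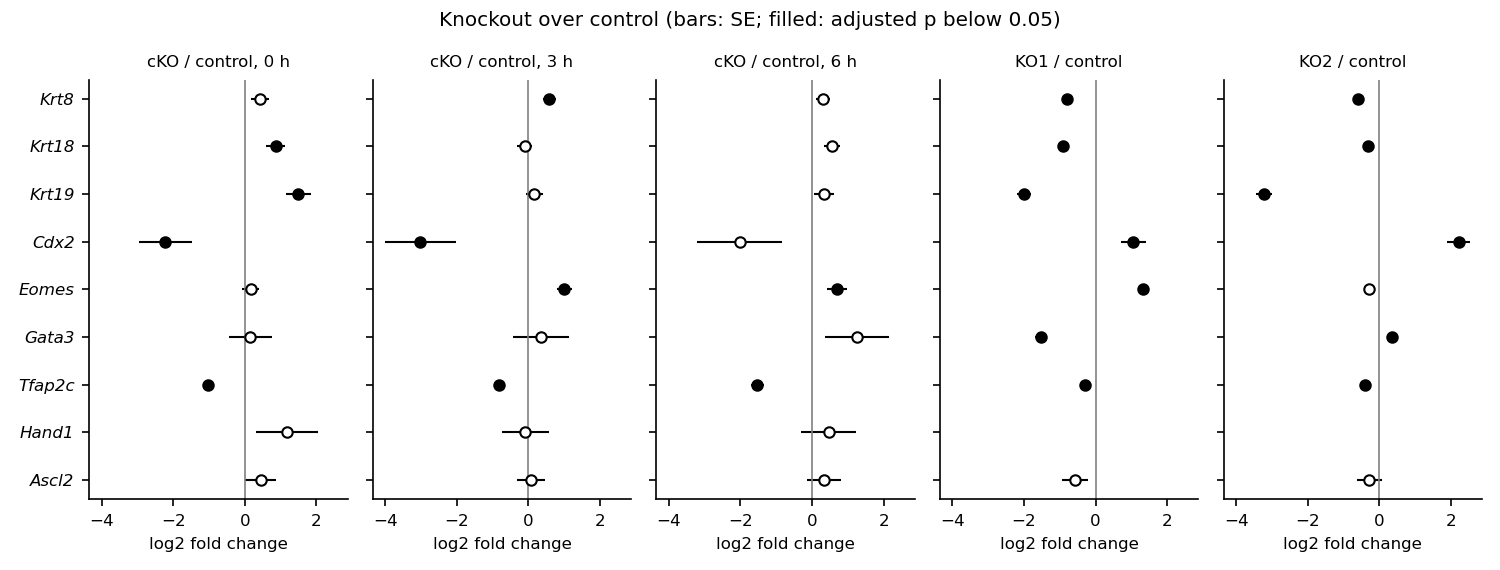
Log2 fold change of each gene (x axis, with bars for standard errors derived from the edgeR test, n = 2 libraries a group) in the libraries labelled cKO over control at 0, 3 and 6 h and in the Mettl3 lines over their control, with filled points where the edgeR adjusted p was below 0.05. Krt19 lies at 1.49 in the libraries labelled cKO at 0 h, and at -2.01 in KO1 and -3.22 in KO2. Hand1 has no point in the Mettl3 panels because it was not tested there.

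The lines were tested directly against each other, with the control left out of the contrast. Eomes (1.60 ± 0.12, adjusted p = 8.97e-20) and Krt19 (1.21 ± 0.26, adjusted p = 6.91e-05) were higher in KO1 than in KO2. Gata3 (-1.88 ± 0.16, adjusted p = 8.48e-17), Cdx2 (-1.17 ± 0.28, adjusted p = 0.000238), Krt18 (-0.61 ± 0.098, adjusted p = 1.99e-07) and Krt8 (-0.22 ± 0.072, adjusted p = 0.00740) were lower. That is 2 higher and 4 lower of 8 genes, where 46.1% of all genes were called, 24.5% higher and 21.6% lower. Libraries did not overlap for these 6 genes, against 72.0% of all genes. Tfap2c differed by 0.09 ± 0.083, with overlapping libraries, and turned to -0.29 with a call when scaled to spike-ins, which put the median of all genes at -0.38, with 7.63% of all genes called higher and 48.1% lower. The Krt8 call was lost without replicate 1 of KO1 (-0.17) or replicate 1 of KO2 (-0.16). The promoters of Eomes, Gata3 and Cdx2, on which the lines differed most among the factors, are shown in the same way as those of the keratins.
Eomes, chr9:118477939-118478238, plus strand: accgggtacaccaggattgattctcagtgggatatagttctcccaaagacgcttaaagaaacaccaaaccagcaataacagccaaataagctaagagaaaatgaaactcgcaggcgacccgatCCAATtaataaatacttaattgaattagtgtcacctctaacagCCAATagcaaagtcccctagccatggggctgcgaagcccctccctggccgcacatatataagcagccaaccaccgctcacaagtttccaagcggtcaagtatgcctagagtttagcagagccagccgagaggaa
Gata3, chr2:9878551-9878850, minus strand: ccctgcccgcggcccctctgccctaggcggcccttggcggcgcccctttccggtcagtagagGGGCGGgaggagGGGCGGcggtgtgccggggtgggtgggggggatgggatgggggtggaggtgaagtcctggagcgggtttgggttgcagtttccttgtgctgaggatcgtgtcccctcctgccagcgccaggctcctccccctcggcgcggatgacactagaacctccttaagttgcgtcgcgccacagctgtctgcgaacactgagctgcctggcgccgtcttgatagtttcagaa
Cdx2, chr5:147307200-147307499, minus strand: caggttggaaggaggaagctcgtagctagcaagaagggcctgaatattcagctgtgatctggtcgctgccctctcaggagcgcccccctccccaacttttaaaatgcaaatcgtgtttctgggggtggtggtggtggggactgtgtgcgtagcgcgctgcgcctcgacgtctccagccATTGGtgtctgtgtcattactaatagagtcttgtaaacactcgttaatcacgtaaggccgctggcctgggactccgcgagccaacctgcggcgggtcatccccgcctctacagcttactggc
The Eomes window held 2 CCAAT matches, the Gata3 window 2 GGGCGG matches and the Cdx2 window 1 CCAAT match on the strand opposite to the printed letters. None of these 3 windows held TATAAA or AGATAA. Eomes (ENSMUSG00000032446.14) lies on chromosome 9, 118478212 to 118486132, plus strand. Gata3 (ENSMUSG00000015619.10) lies on chromosome 2, 9857078 to 9890034, and Cdx2 (ENSMUSG00000029646.3) on chromosome 5, 147300805 to 147307270, both on the minus strand. The Gata3 window, 9878551 to 9878850, lies inside the longer GENCODE gene and is not the promoter at the GENCODE start, 9890034. Tfap2c (ENSMUSG00000028640.11) lies on chromosome 2, 172549593 to 172558622, plus strand. Exons of Krt8, Eomes and Gata3 overlap exons of other annotated genes over 101, 118 and 232 bases, and since the strand setting of the counting is not given, reads there are uncertain. The partners had few reads. Gm36026 beside Krt8 had at most 5 reads in a group, in KO1, where Krt8 had 1679. Gm33460 beside Eomes had at most 31 reads in a group, in KO1, where Eomes had 1086. In the Mettl3 control Gm33460 had 30 reads beside 360 of Eomes, and in libraries labelled cKO at 6 h 6 beside 100. Beside Gata3, Gm13256 had at most 9 reads in a group and 9230102O04Rik, on the same strand, at most 3. In control at 6 h the 3 reads of 9230102O04Rik stood beside 2 and 3 reads of Gata3, so its reads there are uncertain. Gata3 had 2 to 20 reads in a Ythdc1 library and 64 to 249 in a Mettl3 library.

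The balance between the keratins is set out by library. Krt8 over Krt18, each per kb of exon, ranged from 0.388 to 1.48 in the 12 Ythdc1 libraries with a median of 0.762, and from 1.20 to 1.79 in the 6 Mettl3 libraries with a median of 1.54. At 0 h it was 0.388 and 0.639 in libraries labelled cKO, against 0.923 and 0.485 in control. The 3 h libraries gave 1.48 and 1.08 in those labelled cKO, against 0.758 and 0.765 in control, and did not overlap. By 6 h cKO libraries stood at 1.02 and 0.656, against 0.693 and 1.15 in control, and overlapped as at 0 h. Krt19 over Krt8 was 0.0975 and 0.0762 in libraries labelled KO1, 0.0297 and 0.0350 in KO2 and 0.200 and 0.201 in the Mettl3 control, so each line had a lower share of Krt19 than the control. In Ythdc1 libraries at 0 h it was higher in those labelled cKO, at 0.606 and 1.06 against 0.384 and 0.412 in control. At 3 h it was lower, at 0.471 and 0.628 in cKO against 0.764 and 0.727 in control. The 6 h libraries overlapped, with 0.469 and 0.564 in cKO and 0.621 and 0.435 in control. These ratios are free of the scale of a library and were given no test.

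**Figure D4:**
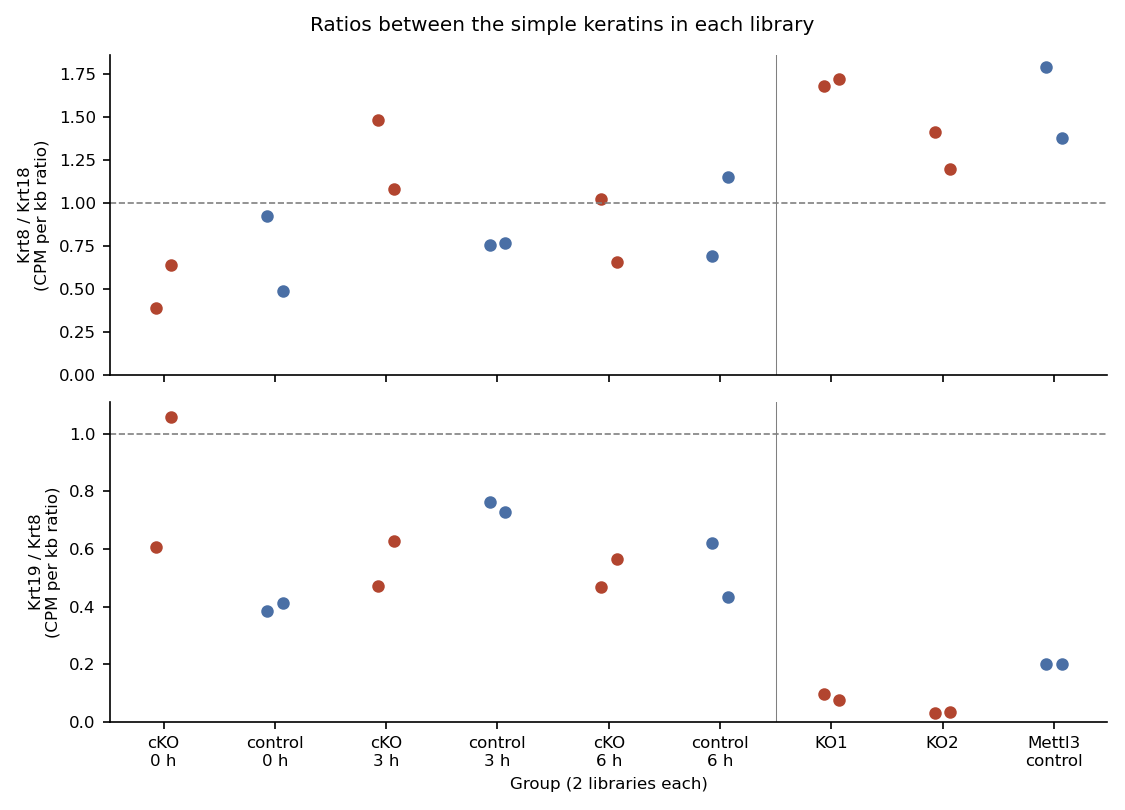
Ratio of Krt8 to Krt18 (top) and of Krt19 to Krt8 (bottom), each in CPM per kb of exon, in every library, with libraries labelled cKO, KO1 and KO2 in red, controls in blue and a dashed line at 1. Krt19 over Krt8 lies at 0.200 and 0.201 in the Mettl3 control and below 0.1 in all 4 knockout libraries.

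Other genes of simple epithelia included the junction genes Cdh1 and Cldn4, which were lower in both Mettl3 lines. Of 21 tested on a list of 22, 4 rose and 14 fell in KO1 (median -0.50), and 6 rose and 12 fell in KO2 (median -0.83), where all genes had medians near 0 and 23.9% of them rose and 22.2% fell in KO1, and 24.4% and 26.4% in KO2. Scaled to spike-ins the split was 7 up and 9 down in KO1 (median -0.32) and 9 up and 9 down in KO2 (median -0.27), against 34.8% of all genes up and 13.7% down in KO1 and 56.7% and 6.69% in KO2. Cdh1, which encodes E-cadherin, was at 528 ± 13.1 CPM in KO1, 484 ± 9.46 in KO2 and 1190 ± 4.32 in control (-1.18 and -1.30). The tight junction gene Cldn4 was at 87.2 ± 5.19 CPM in KO1, 101 ± 0.948 in KO2 and 296 ± 14.7 in control (-1.76 and -1.55). Dsp, which encodes desmoplakin, the link between keratin filaments and desmosomes, fell by 0.80 in KO1 and by 1.44 in KO2 on the log2 scale, and Plec, a cytolinker, fell by 0.54 and by 0.48, with the KO2 value turned to 0.079 by spike-in scaling. Cdh1, Cldn4 and Dsp were lower in both lines on that scale too (-0.99 and -0.74, -1.58 and -0.99, and -0.62 and -0.88 in KO1 and KO2). In libraries labelled cKO at 0 h the list had 4 genes up and 2 down (median -0.083; 13.5% and 15.8% of all genes), and 1 up and 10 down scaled to spike-ins (median -0.45; 4.41% and 42.3% of all genes), with Cldn4 at 55.0 ± 10.5 CPM against 14.5 ± 0.956 in control (1.93 ± 0.13) and Dsp at -0.51 ± 0.16. Over 6 h of the chase it had 12 up and 1 down in control (median 0.67) and 11 up and 1 down in libraries labelled cKO (median 0.40), where 33.1% of all genes were up and 31.7% down in control and 29.6% and 31.3% in cKO, rises relative to other RNA that became 4 up and 9 down in control and 1 up and 13 down in cKO when scaled to spike-ins (63.0% and 68.4% of all genes down). The 6 h interaction was below 0 for 6 genes and above for 1, and for 6 and 0 on the spike-in scale (9.35% and 10.3% of all genes below 0), with Plec at -1.38 ± 0.094 and Dsp at -1.11 ± 0.22.

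Genes upstream of the trophoblast factors, or related to them, were measured as a list. The sum of 14 such genes lay between 605 and 957 CPM in all groups. Cdx1, a relative of Cdx2, had 20.9 ± 0.501 CPM in libraries labelled cKO at 0 h and 64.2 ± 1.06 in control (-1.62 ± 0.087, adjusted p = 3.29e-17). In the Mettl3 experiment it had 63.3 ± 4.17 CPM in KO1, 30.4 ± 1.63 in KO2 and 8.30 ± 0.418 in control, a rise of 2.93 ± 0.086 and of 1.87 ± 0.093. Against KO2, Cdx1 was higher in KO1 (1.06) and Cdx2 lower (-1.17). Over the control chase Cdx1 rose by TMM, by 0.77 at 3 h and 1.07 at 6 h (0.25 and 0.15 scaled to spike-ins, with no call at 6 h), where Cdx2 was at -1.51 and -1.94. The list had 0 up and 4 down of 12 tested in libraries labelled cKO at 0 h, 4 up and 6 down of 13 in KO1 and 5 up and 5 down of 13 in KO2. The shares of all genes called were 29.4%, 46.1% and 50.8% in these comparisons. Scaled to spike-ins these became 0 up and 8 down, 5 up and 4 down, and 8 up and 3 down, where 42.3% of all genes were down in cKO, and 34.8% and 56.7% up in KO1 and KO2. Bmp4, a growth factor that can steer stem cells to trophoblast, had 14.0 and 14.1 CPM in KO1 and 3.74 and 4.26 in KO2 (1.81 ± 0.14). Its control was at 13.7 ± 1.02 CPM, so that KO2 was lower than control (-1.78 ± 0.14). Klf5 had 185 ± 5.22 CPM in KO1 and 113 ± 3.01 in KO2 (0.71 ± 0.043). With 159 ± 8.94 CPM in control, Klf5 in KO2 was at -0.49 ± 0.043, and at 0.072 with no call scaled to spike-ins. Of the differentiated trophoblast genes, 10 of 20 were tested in the Ythdc1 libraries, and at 0 h 1 was higher in those labelled cKO and 2 lower, against 29.4% of all genes called. Peg10, an imprinted gene needed for the placenta, had 336 ± 2.61 CPM in libraries labelled cKO at 0 h and 118 ± 5.14 in control (1.51 ± 0.062), and Cited1 was at -1.36 ± 0.21. In KO1 1 of 11 tested rose and 1 fell, and in KO2 3 rose and 4 fell (4 and 1 scaled to spike-ins), against 46.1% and 50.8% of all genes called by TMM in KO1 and KO2, with Phlda2 at 9.64 and 10.4 CPM in KO1, 2.38 and 1.88 in KO2 and 5.06 and 5.11 in control.

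Markers of other cells moved beside some of these results. The 10 fibroblast markers summed to 193 to 198 CPM in libraries labelled KO1, 513 to 517 in KO2 and 201 to 218 in the Mettl3 control, and over all Ythdc1 libraries, whose values by time are given with the chase, to 10.2 to 43.5 CPM. The 10 stratified epithelium markers summed to 25.3 to 28.4 CPM in KO1, 30.5 to 32.0 in KO2 and 48.9 to 54.0 in control, and at 0 h to 19.1 to 24.1 CPM in libraries labelled cKO and 15.4 to 16.0 in control. Among them Ivl and Krt1 had 0 reads in control at 0 h. Of the 10 pluripotency markers, 9 rose and 0 fell in KO1, 1 rose and 7 fell in KO2, and 1 rose and 7 fell in libraries labelled cKO at 0 h, where 23.9% of all genes rose and 22.2% fell in KO1, 24.4% and 26.4% in KO2, and 13.5% and 15.8% in cKO. Scaled to spike-ins 10 rose and 0 fell in KO1, 8 rose and 2 fell in KO2, and 0 rose and 9 fell in cKO, where 34.8% of all genes rose in KO1, 56.7% rose in KO2 and 42.3% fell in cKO. Of 6 primitive streak markers tested in the Mettl3 lines, 1 rose and 0 fell in KO1, and 2 rose and 1 fell in KO2. Scaled to spike-ins these were 3 and 0, and 2 and 0. In libraries labelled cKO at 0 h, 0 of 4 tested rose and 1 fell on both scales. The log2 fold change of T was 4.25 in KO1, 4.54 in KO2 and -2.39 in cKO at 0 h. Scaled to spike-ins T was at 4.42, 5.09 and -2.76. T had 0.114 CPM in the Mettl3 control. Cdx2 was called in the same direction as T in each. The part of these cell types in the keratin and factor values was not tested.

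Across the 12 Ythdc1 libraries, the genes whose log2 CPM followed a member most closely were searched among 10336 coding genes, as a description with no p since these libraries share groups and times. Krt8 was followed by Slc35f5 (Pearson r = 0.988) and Chmp2a (0.972), Eomes by Mapk8 (0.984) and Tm2d3 (0.974), and Tfap2c by Prdm14 (0.942), a regulator of naive pluripotency and germ cells, and Gapvd1 (0.932). Krt19 was followed by Helb (0.924) and Vps8 (0.923), and Krt18 less closely by Gmpr2 (0.874) and Ostf1 (0.840). In the 6 Mettl3 libraries, which the search did not use, r was below 0 for 5 of these 10 pairs. It was -0.168 for Krt8 with Slc35f5 and -0.889 with Chmp2a, and 0.870 for Eomes with Mapk8 and -0.116 with Tm2d3. Tfap2c stood at 0.821 with Prdm14 and 0.696 with Gapvd1, Krt19 at 0.166 with Helb and -0.792 with Vps8, and Krt18 at -0.738 with Gmpr2 and 0.905 with Ostf1. The motif GGACT, a common form of the sequence in which m6A is placed, occurred in the longest transcript 8 times in Cdx2 (3.54 per kb), 4 times in Krt18 (2.78 per kb), 4 times in Krt8 (2.04 per kb) and 3 times in Krt19 (1.90 per kb), where the median of 21801 coding genes was 1.01 per kb. The other 5 genes ranged from 0.933 per kb in Gata3 to 1.87 per kb in Ascl2. Methylation itself was not measured in these libraries.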

How the data were processed

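Nuclear, ribosome-depleted RNA of 18 libraries was measured. The authors deposited a table of unnormalized counts by gene, made with CASAVA, Trimmomatic 0.38, HISAT2 2.1.0 and HTSeq on mm10, per the submitters' processing notes; annotation release and strand setting: not given in the sources used here. The table held 54446 genes, 92 ERCC spike-ins and 5 summary lines, which were left out of library sizes; 42.6% to 61.6% of reads per library were unassigned. From these counts, edgeR 4.0.16 (R 4.3.3) computed TMM-scaled CPM and quasi-likelihood tests, with filterByExpr at a minimum count of 10, Benjamini-Hochberg adjustment over all genes tested and calls below 0.05. The 12 Ythdc1 and 6 Mettl3 libraries were fitted apart, with 1 coefficient per group and no replicate block. Each SE is the absolute log2 fold change over the square root of the F statistic of that test. Its dispersion is shared over all libraries of the fit and moderated over genes, so the SE is not the spread of 2 libraries and is unreliable at low counts. The fit was tested on simulated counts. Alternatives were DESeq2 1.42.0 (size factors, Wald test), spike-in scaling, no filter, a replicate block and each library left out; the fit without both cKO 3 h libraries was chosen after seeing the data. Of the gene IDs, 54409 matched GENCODE M21 without their version, which gave the coordinates. The members and lists were chosen with earlier results of these data known. All 9 members are described. Up to 4 called genes per other list and comparison, by p, could be named, and for likeness the 2 closest genes per member with a mean of at least 50 counts. Intervals and the limit of 3 counts for a count of 0 cover counting error only.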

Additional observations from a re-analysis of the deposited data

Results flagged for a closer look

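In 8 cases the difference between 2 groups' effects was itself called by the edgeR test, with adjustment over all genes tested. At 3 h of the chase, the change in libraries labelled cKO minus that in control was -0.9651 for Krt18 and -1.3286 for Krt19 on the log2 scale. Both values turned above 0 under spike-in scaling, and both calls were lost without single libraries.

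The lines labelled KO1 and KO2, set against each other, differed by -0.2234 for Krt8, -0.6054 for Krt18, 1.2146 for Krt19, -1.173 for Cdx2, 1.6007 for Eomes and -1.8798 for Gata3, each as KO1 over KO2. These 6 were also called, in the same direction, under spike-in scaling. Mettl3 RNA itself was at 31.9 CPM in KO1 and 22.4 CPM in KO2, and its part in these differences was not tested.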

How the results depend on the processing

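Spike-in scaling moved most. Called genes numbered 8 at 3 h and 1 at 6 h for cKO over control, 7 at 3 h and 5 at 6 h over 0 h in cKO, and 7 for the 3 h interaction. Over all genes it called 93.3% higher for cKO over control at 3 h and 46.5% lower at 6 h, 83.8% higher at 3 h and 68.4% lower at 6 h in cKO, and 89.4% above 0 in the 3 h interaction. It turned Krt18 (1.8868), Tfap2c (1.1728) and Hand1 (1.8884) for cKO over control at 3 h, Tfap2c (-0.3707) in control at 3 h, and Krt18 in control (-0.242) and cKO (-0.597) at 6 h. In cKO at 3 h it turned Krt18 (1.6062), Gata3 (0.0819), Hand1 (1.6083) and Ascl2 (1.5367), and in the 3 h interaction Krt18 (1.3993), Krt19 (1.025) and Ascl2 (1.9829). In KO2 it turned Krt18 (0.2448) and Tfap2c (0.1671), and for KO1 over KO2 Tfap2c (-0.2857).

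The DESeq2 Wald test called 1 gene for cKO over control at 6 h, 2 in control at 3 h, 1 in cKO at 3 h and 0 of the 4 with an adjusted p for the 3 h interaction. It also ended the calls of Cdx2 (adjusted p = 0.0752) and Krt18 (0.0771) in control at 6 h and of Gata3 in KO2 (0.0958). DESeq2 size factors ended the call of Tfap2c in cKO at 3 h (0.0882) and gave 5 calls: Krt18 for cKO over control at 6 h (0.0466), Eomes in control at 3 h (0.0357), in cKO at 6 h (0.0460) and in the 3 h interaction (0.0481), and Tfap2c in control at 6 h (0.0219). With no filter, Cdx2 in control at 3 h lost its call (0.0858), and Krt18 for cKO over control (0.0105) and Tfap2c in control (0.0256) were called at 6 h. Without both cKO 3 h libraries, 1 was called for cKO over control at 6 h. The cause of these changes was not tested. Leaving out 1 library gave 2 to 4 calls for cKO over control at 0 h, 3 to 4 at 3 h and 1 to 3 at 6 h, 3 to 5 and 4 to 7 in control at 3 and 6 h, 1 to 3 in cKO at both times, 0 to 3 and 0 to 1 for the 3 and 6 h interactions, 6 to 8 in KO1, 4 to 6 in KO2 and 5 to 6 for KO1 over KO2.

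Same-numbered libraries did not deviate together over all genes tested (r from -0.034 to 0.043), and the main fit did not pair them. This r cannot exclude a batch that touches only a part of the genes. The replicate block changed 1 call, Tfap2c in control at 6 h (-0.3073, adjusted p = 0.0461). Depth limits Cdx2, Gata3 and Hand1 most, with 0 to 25, 2 to 20 and 0 to 17 reads in a Ythdc1 library.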
